A study of Homo sapiens with 6 samples.

Results

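Fibulin-2, encoded by FBLN2, is a secreted glycoprotein of basement membranes and elastic fibres. Together with 44 other genes of the extracellular matrix it was followed in human embryonic stem cells after knockdown of the alpha satellite transcript (ALR), which is read from the repeats of human centromeres. The 45 genes were selected by name from the 53719 rows of a gene count table. FBLN2 was included because its count rose in the knockdown, and earlier results of the same contrast were known when the other names were picked, so the differences between the groups are given here as descriptions. All 45 genes had a row, and all 45 passed the filter on low counts.

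The cells were of H9, a long-established line of human embryonic stem cells, grown in RSeT, a commercial medium sold for a naive-like pluripotent state. All 6 libraries came from cells transfected with a gapmer, an antisense oligonucleotide with a DNA core that makes RNase H cut the RNA it pairs with. The control group (libraries a, b and c) received a control gapmer, and the knockdown group (libraries a, b and c) received a gapmer against ALR, which the sample titles call Sense3. Total RNA was taken after 48 h and sequenced from directional libraries. The labels do not say whether the 3 libraries of a group came from separate cultures. Each p-value sets a difference against the variation between these libraries, estimated with the help of all genes, and that variation may be technical. The ALR transcript itself was not analysed here.

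The extracellular matrix is the protein mesh that cells secrete around themselves. In a basement membrane, the thin sheet under epithelia and around the early epiblast, laminin and type IV collagen form separate networks, and nidogens and the heparan sulfate proteoglycans perlecan and agrin tie the networks together. Fibrillins build microfibrils that carry elastin and store latent TGF-beta through the latent TGF-beta binding proteins, and fibulins connect microfibrils, elastin and basement membranes. Pluripotent stem cells make laminin and type IV collagen of their own and depend on laminin or a like protein as a substrate in culture.

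Total counts per library were between 25087629 and 36576752. Knockdown library a stood apart: it had counts in 29678 rows against 25898 to 26788 in the other 5 libraries, and it lay at -32.5 on the first principal component of all tested genes against 0.632 to 9.79 for the others. The 45 genes held 0.466%, 0.483% and 0.480% of all counts in knockdown libraries a to c and 0.453%, 0.444% and 0.455% in control libraries a to c. All 3 knockdown shares lay above all 3 control shares. Pluripotency markers summed to between 7046 and 7786 CPM (counts scaled by TMM to a common library size) in the knockdown and between 6897 and 7018 in the control, although SOX2 was listed at 0 in all 6 libraries. Of the 9 tested pluripotency markers, 0 passed the adjusted threshold in edgeR and DESeq2 called 1 (all genes in DESeq2, 1.06% higher and 2.84% lower). In edgeR, 3 had an unadjusted p under 0.05, in both directions (all tested genes, 6.68% higher and 7.57% lower). POU5F1 (0.42 ± 0.10, log2, SE) and LIN28A (0.19 ± 0.073) were higher and LIN28B (-0.16 ± 0.0625) was lower. The naive marker KLF17 was near 0 (0.171 ± 0.16 CPM in the knockdown and 0.077 ± 0.043 in the control, SD, n = 3) and DPPA5 was at about 1 CPM. Markers of the naive state summed to 67.0 to 74.3 CPM in the knockdown and 65.4 to 71.4 in the control, with 0 genes called by edgeR, 0 by DESeq2 and 0 at an unadjusted p under 0.05. Other naive markers were detected in the controls: TFCP2L1 at 27.0 ± 2.8 CPM, DPPA3 at 18.8 ± 0.73, KLF4 at 17.9 ± 1.3 and SUSD2 at 2.61 ± 0.24, with ARGFX under 1 CPM. The naive list was thus mixed, with KLF17 near 0 in cells labelled as a naive condition.

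The sequence before the start of FBLN2 is shown because FBLN2 is the gene that passed the threshold, and it is set beside that of COL6A2, whose fitted change was above 0, and that of the neighbours COL4A5 and COL4A6, whose fitted changes were both below 0. FBLN2 (ENSG00000163520.13) lies on the plus strand at chr3:13549131-13638422 in GRCh38, as annotated by GENCODE. RefSeq (GRCh38.p14) gives FBLN2 a pair of starts, and the bases before each are listed. In the FBLN2 and COL6A2 sequences, capitals mark GC boxes, the letters GGGCGG on either strand, as bound by SP1, and in COL6A2 also the TATA box TATAAA. In the last sequence, capitals mark the bases that are also within the 250 bases before the opposite start of COL4A6.
FBLN2 first start, chr3:13548875-13549124, plus strand: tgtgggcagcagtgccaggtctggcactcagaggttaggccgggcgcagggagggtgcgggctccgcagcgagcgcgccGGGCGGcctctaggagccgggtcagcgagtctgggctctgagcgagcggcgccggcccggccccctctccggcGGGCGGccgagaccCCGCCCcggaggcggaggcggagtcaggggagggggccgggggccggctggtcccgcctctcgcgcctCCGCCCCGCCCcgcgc
FBLN2 second start, chr3:13568490-13568739, plus strand: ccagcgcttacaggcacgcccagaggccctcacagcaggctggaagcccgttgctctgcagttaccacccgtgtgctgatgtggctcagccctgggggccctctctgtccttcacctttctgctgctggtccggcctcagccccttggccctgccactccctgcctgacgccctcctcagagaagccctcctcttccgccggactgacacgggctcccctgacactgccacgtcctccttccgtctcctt
COL6A2 start, chr21:46097862-46098096, plus strand: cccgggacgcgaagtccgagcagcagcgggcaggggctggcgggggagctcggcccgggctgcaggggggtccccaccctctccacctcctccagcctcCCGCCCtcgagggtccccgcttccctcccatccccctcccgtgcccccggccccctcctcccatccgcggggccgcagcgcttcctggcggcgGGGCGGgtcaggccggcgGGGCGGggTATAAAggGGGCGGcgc
COL4A5 start, chrX:108439588-108439837, plus strand: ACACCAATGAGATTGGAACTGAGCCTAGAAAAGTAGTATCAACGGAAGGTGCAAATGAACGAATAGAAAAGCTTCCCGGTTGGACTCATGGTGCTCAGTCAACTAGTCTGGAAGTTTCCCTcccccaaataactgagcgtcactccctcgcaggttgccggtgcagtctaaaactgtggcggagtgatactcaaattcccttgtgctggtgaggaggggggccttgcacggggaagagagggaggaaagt

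The 250 bases before the first FBLN2 start had a GC content of 80.4%, with 33 CpG and 5 matches to the GC box, some of them overlapping. Those before the second start had a GC content of 66.0%, 11 CpG and 0 matches. COL6A2 had 79.6% GC in its 235 bases, which stop at the first annotated base of the gene, and COL4A5 had 51.2% in 250 bases with 8 CpG. The starts of COL4A5 and COL4A6, on opposite strands of chromosome X, are 379 bases apart, and 121 of the printed bases lie before both. A like arrangement holds for COL4A1 and COL4A2 on chromosome 13, whose starts are 126 bases apart. Of the 45 genes, 34 were matched by symbol to RefSeq windows of 300 bases (250 before and 50 after a start), with 46 windows in all. The GC box was in 37 of these 46 windows (80.4%) and in 44.95% of the 35116 windows of all genes. The letters TATAAA were in 3 of the 46 windows (6.52%; 11.5% of all windows), CCAAT in 14 (30.4%; 34.6%) and TGANTCA, the AP-1 site, in 2 (4.35%; 7.71%), each searched on both strands. The windows of the 45 genes were also richer in GC, with a median of 69.5% against 58.7%. These matches describe letters and not binding.

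FBLN2 was the gene of the 45 that rose past the threshold. Its level was 15.4, 16.2 and 16.5 CPM in knockdown libraries a to c and 10.7, 8.95 and 11.1 CPM in control libraries a to c. The groups did not overlap, and the 3 knockdown libraries lay closer together (16.1 ± 0.55 CPM, SD, n = 3) than the controls (10.3 ± 1.1 CPM). Behind these values stood 438, 542 and 417 raw counts in the knockdown and 304, 278 and 404 in the control. The fitted change was 0.65 ± 0.10 (log2, SE), or 1.56-fold, with an adjusted p of 0.0156 in edgeR's quasi-likelihood test over 19721 genes. Among all tested genes 27 (0.137%) passed in this direction and 128 (0.649%) in the other. Since this rise is what singled FBLN2 out, the p describes it and does not test it. Without knockdown library a the change was 0.67 ± 0.12 (adjusted p = 0.0238, edgeR). The call did not hold without knockdown library b (0.63, adjusted p = 0.0608), control library a (0.68, adjusted p = 0.0999), control library b (0.55, adjusted p = 0.101) or control library c (0.71, adjusted p = 0.0699), all in edgeR. In bulk RNA, a change in the number of cells that express a gene and in the RNA per cell cannot be told apart.

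The other fibulins differed less or were scarce. FBLN1, which encodes fibulin-1, a protein of basement membranes and elastic fibres, was at 181, 210 and 196 CPM in knockdown libraries a to c and at 178, 170 and 177 CPM in the controls. Its groups did not overlap, but knockdown library a exceeded the highest control by little, and the fitted change was 0.16 ± 0.070 (log2, SE; adjusted p = 0.333, edgeR). It was 0.10 without knockdown library b and 0.08 with each library's trend on GC content removed. FBLN5, whose product helps to assemble elastic fibres, was at 2.996, 2.16 and 3.40 CPM in the knockdown and 1.69, 1.51 and 2.62 CPM in the control. Its fitted change of 0.54 ± 0.26 was near that of FBLN2, but the groups overlapped and each library held fewer than 100 counts (adjusted p = 0.381, edgeR). Without control library c the change was 0.83. EFEMP2 (fibulin-4) changed by 0.23 ± 0.15, HMCN1 (hemicentin-1, also named fibulin-6) by 0.11 ± 0.099 and EFEMP1 (fibulin-3) by -0.09 ± 0.19, all with overlapping groups. In all, 5 of the 6 fibulin genes had a fitted change above 0 (54.4% of all tested genes), with a median of 0.19.

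**Figure D1:**
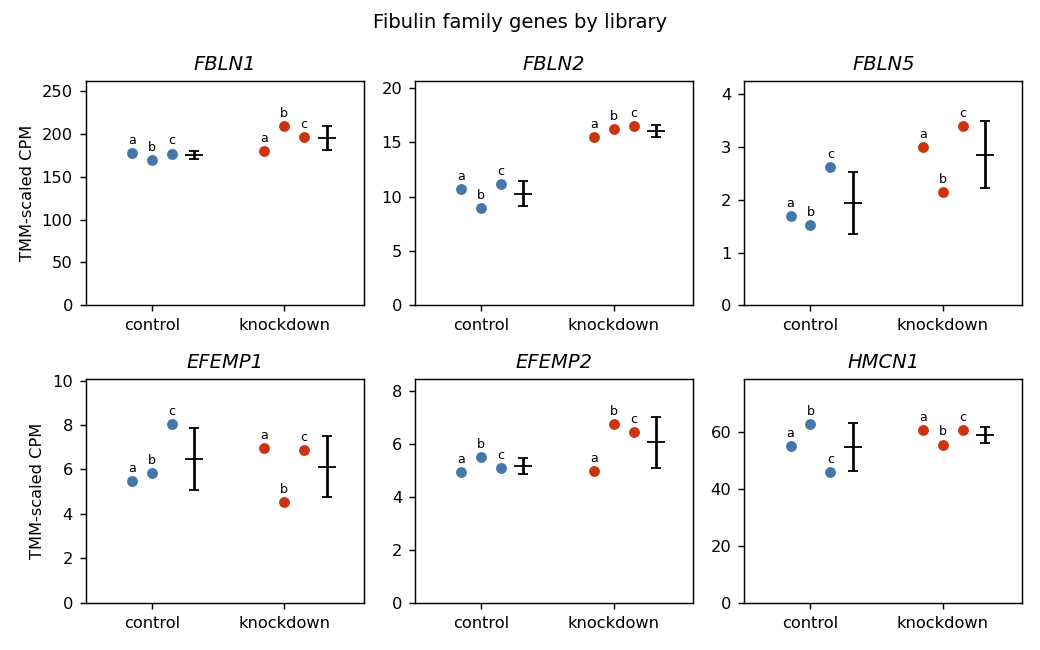
Level of 6 fibulin genes in TMM-scaled CPM (vertical axis, linear from 0) in the 3 control (blue) and 3 knockdown (red) libraries, lettered a to c, with the mean and SD of each group in black. The knockdown points of FBLN2 lie between 15.4 and 16.5 CPM, above all control points, whereas FBLN5, EFEMP1, EFEMP2 and HMCN1 overlap between the groups.

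FBLN1 stayed far above FBLN2 in both groups. Per length of the transcribed exons, FBLN1 exceeded FBLN2 by 11.02, 12.6 and 10.5 times in control libraries a to c and by 7.73, 8.53 and 7.85 times in knockdown libraries a to c. The ratio was lower in every knockdown library than in every control library, as the changes of the 2 genes imply.

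Of the 45 genes, 36 (80.0%) had a fitted change above 0, compared with 54.4% of all tested genes. The median change over the 45 was 0.14 on the log2 scale, beside 0.02 over all 19721 tested genes. In 13 of the 45, all 3 knockdown libraries lay above all 3 controls, a pattern shown by 9.55% of the tested genes, and in 0 of the 45 did all 3 knockdown libraries lie below, against 9.37%. At an unadjusted p under 0.05, 15 of the 45 were higher (6.68% of all tested genes) and 3 were lower (7.57%). Beside FBLN2, 0 of the 44 genes passed the adjusted threshold in edgeR, 14 were higher and 3 lower at an unadjusted p under 0.05, and DESeq2's Wald test called 2 of them, AGRN and COL6A1, both higher (1.06% of the 13601 genes to which DESeq2 gave an adjusted p; 2.84% were lower). Nothing is read from these shares, because the names were picked with this contrast known. Without knockdown library a, the median over the 45 was 0.16 (all genes, -0.001), and 35 genes lay above 0.

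**Figure D2:**
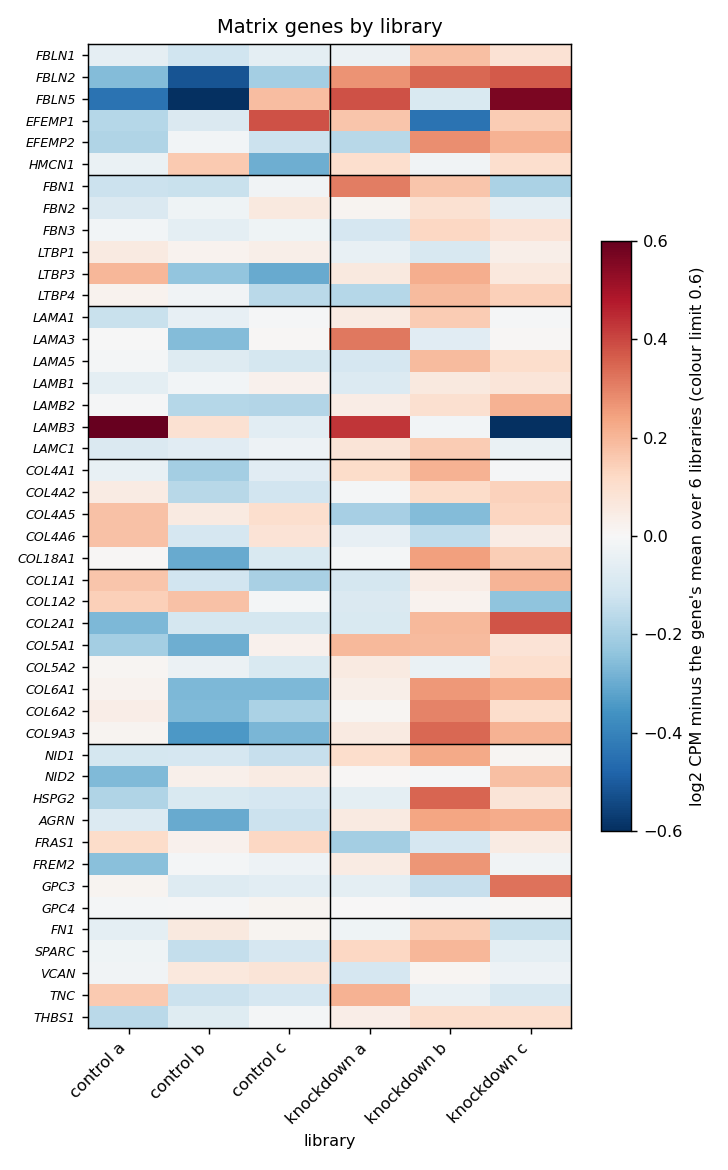
Each row is 1 of the 45 genes, in role order, and each column 1 library; colour gives log2 CPM minus the mean of the gene over the 6 libraries, from -0.6 (blue) to 0.6 (red). The row of FBLN2 is blue in all 3 control libraries and red in all 3 knockdown libraries, and knockdown library b is the highest of its group in 23 of 45 rows.

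The 3 libraries of a group did not contribute alike. Knockdown library b was the highest of its group in 23 of the 45 genes (51.1%), against 37.2% of all tested genes, and knockdown library a was the lowest in 21 (46.7%), against 34.4%. Control library b was the lowest of the controls in 20 of the 45 (44.4%), against 34.1% of all tested genes. The median deviation of the 45 genes from their mean over the 6 libraries was 0.018, 0.12 and 0.085 (log2) in knockdown libraries a to c and -0.019, -0.086 and -0.063 in control libraries a to c. Knockdown library b and control library b thus lay farthest apart.

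Fibrillins and latent TGF-beta binding proteins showed small differences. FBN1, the main fibrillin of connective tissue, was at 28.7, 26.0 and 20.3 CPM in knockdown libraries a to c and at 21.2, 21.1 and 22.8 CPM in the controls. Knockdown library c lay below all controls, so the groups overlapped (0.20 ± 0.11, log2, SE). Leaving out knockdown library a gave 0.09 and leaving out c gave 0.31. LTBP4, which holds latent TGF-beta and serves elastic fibre assembly, was at 30.9, 39.8 and 38.4 CPM in the knockdown and 35.4, 34.3 and 31.1 CPM in the control, with a change of 0.12 ± 0.097. That value was 0.22 without knockdown library a, 0.04 without b, 0.06 without c, 0.06 without control library c and 0.02 with the GC trend removed. FBN2 and FBN3, other fibrillins, changed by 0.04 and 0.07, LTBP3 by 0.22 at under 3 CPM, and LTBP1 by -0.07. Of these 6 genes 5 had a change above 0 (54.4% of all tested genes), and the median was 0.09. In 0 of the 6 were the groups apart, against 9.55% of all tested genes with the knockdown above and 9.37% with it below. With 6 genes, nothing is read from that 0.

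The laminin genes include the chains of laminin-511, laminin-521 and laminin-111, heterotrimers of an alpha, a beta and a gamma chain. LAMB2, the beta-2 chain, was at 39.7, 41.2 and 44.6 CPM in knockdown libraries a to c and at 38.4, 34.3 and 34.2 CPM in the controls. All knockdown libraries were higher, and the change was 0.23 ± 0.076 (log2, SE; adjusted p = 0.195, edgeR), or 0.14 with the GC trend removed. LAMA1, the alpha chain of laminin-111, was at 137, 147 and 132 CPM in the knockdown and 121, 128 and 131.7 CPM in the control. Its groups stood apart by less than 1 CPM, and the change was 0.13 ± 0.067, or 0.08 without knockdown library b. LAMA5 (0.14), LAMA3 (0.17) and LAMC1 (0.13) had changes of like size with overlapping groups. LAMB1, the beta-1 chain, was at 229, 252 and 254 CPM in the knockdown and 233, 239.0 and 246 CPM in the control. Its groups overlapped, and the change of 0.03 ± 0.066 turned to -0.01 without knockdown library c. LAMB3, a chain of the epidermal laminin-332, stayed under 1 CPM in every library, and its change of -0.31 ± 0.44 is less than its standard error. In all, 6 of 7 laminin genes had a change above 0 (54.4% of all tested genes), with a median of 0.13.

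Type IV collagen is the network-forming collagen of basement membranes. Of the 4 type IV genes among the 45, 0 passed the threshold in edgeR (all genes, 0.137% higher and 0.649% lower) or DESeq2 (1.06% and 2.84%). At such shares, the 0 says little about 4 genes. COL4A1 (higher) and COL4A5 (lower) had an unadjusted p under 0.05 in edgeR (all tested genes, 6.68% higher and 7.57% lower). COL4A1 was at 128, 137 and 118 CPM in knockdown libraries a to c and at 114, 103 and 113 CPM in the controls. The groups did not overlap, and the change was 0.21 ± 0.074 (log2, SE; adjusted p = 0.227, edgeR). COL4A2, its partner chain, was at 146, 159 and 163 CPM against 153, 132 and 136 CPM, with a change of 0.15 ± 0.074 (0.06 with the GC trend removed) and overlapping groups. COL4A5 was lower in knockdown libraries a and b: it was at 129, 124 and 162 CPM in knockdown libraries a to c and at 168, 154 and 159 CPM in the controls. Knockdown library c lay among the controls. The change was -0.21 ± 0.093 (adjusted p = 0.328, edgeR) and -0.36 without that library, where it passed the threshold (adjusted p = 0.00493). COL4A6, the neighbour of COL4A5, was at 46.6, 43.3 and 49.6 CPM against 54.4, 44.8 and 51.0 CPM (-0.11 ± 0.084). Its change lay between -0.19 and -0.03 over the 17 alternatives.

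Within each pair the ratios of the partners overlapped between the groups. The mean ratio differed by less than its SD in the knockdown, but for COL4A5 and COL4A6 by more than its SD in the control. Per exonic length, COL4A1 was at 1.07 ± 0.11 times COL4A2 in the knockdown and 1.03 ± 0.053 times in the control (SD, n = 3), and COL4A5 at 2.32 ± 0.21 and 2.52 ± 0.15 times COL4A6. COL18A1, whose product is a basement membrane collagen and the source of endostatin, was at 138, 164 and 154 CPM in knockdown libraries a to c and 139, 112 and 130.2 CPM in the controls. Only knockdown library a lay inside the control range, and the change was 0.26 ± 0.089 (log2, SE; adjusted p = 0.229, edgeR). It was 0.17 without control library b and 0.17 with the GC trend removed.

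Among the other collagens, 7 of 8 had a change above 0 (54.4% of all tested genes) and the median was 0.29. In COL6A1, COL9A3, COL5A1 and COL2A1 all knockdown libraries lay above all controls, a pattern shown by 9.55% of all tested genes. COL6A1, a chain of the beaded-filament type VI collagen, was at 45.6, 53.3 and 52.0 CPM in knockdown libraries a to c and at 45.2, 36.9 and 36.9 CPM in the controls. Knockdown library a and control library a differed by less than 1 CPM, and the change was 0.34 ± 0.093 (log2, SE; adjusted p = 0.119, edgeR). COL6A2, the next chain of the same collagen, was at 49.0, 59.7 and 52.3 CPM against 49.95, 40.5 and 42.6 CPM, a change of 0.28 ± 0.094. COL6A1 relative to COL6A2, per length, was 0.95 ± 0.051 in the knockdown and 0.90 ± 0.025 in the control.

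COL9A3, a chain of type IX collagen, was at 14.0, 17.1 and 15.6 CPM in knockdown libraries a to c and at 13.7, 10.6 and 11.2 CPM in the controls. Its change was 0.40 ± 0.12 (log2, SE; adjusted p = 0.147, edgeR), after FBLN2 and FBLN5 the third in size of the 45. COL5A1, a fibril-nucleating collagen chain, was at 18.4, 18.3 and 17.1 CPM against 14.0, 13.1 and 16.4 CPM (0.31 ± 0.10). COL2A1, the cartilage collagen, was at 5.01, 6.11 and 6.92 CPM against 4.43, 4.96 and 4.955 CPM (0.33 ± 0.15, or 0.20 without knockdown library c). Its knockdown library a exceeded control library b by little.

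Type I collagen is built from the chains of COL1A1 and COL1A2, and neither gene passed the threshold. COL1A2 was at 67.5, 72.9 and 60.7 CPM in knockdown libraries a to c and at 79.1, 81.0 and 71.1 CPM in the controls, with only knockdown library b inside the control range (-0.20 ± 0.081, log2, SE; adjusted p = 0.289, edgeR). COL1A1 was at 22.4 ± 2.4 and 21.0 ± 2.8 CPM (0.09 ± 0.11). Per length, COL1A1 was at 0.38 ± 0.071 times COL1A2 in the knockdown and 0.31 ± 0.034 times in the control. The ratios were 0.338, 0.346 and 0.465 in knockdown libraries a to c and 0.347, 0.280 and 0.301 in the controls, so they overlapped, and knockdown library c alone lay above all controls.

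Markers of mesenchyme or fibroblasts, the cells that make most fibrillar collagen in tissues, were low, and their sum was higher in the knockdown. The 10 listed genes summed to 7.01 to 9.34 CPM in the knockdown and 5.15 to 6.26 CPM in the control. Those ranges did not overlap, and neither did those of the pluripotency markers. Of the 10 genes, 4 were tested and 0 passed the adjusted threshold in edgeR. PDGFRB and POSTN (2 genes) had an unadjusted p under 0.05 in edgeR, both higher (all tested genes, 6.68% higher and 7.57% lower). TWIST2 changed by 0.33 ± 0.23 (log2, SE) and TWIST1 went the other way (-0.17 ± 0.23). DESeq2 called 0, but it gave an adjusted p to only 13601 of the 19721 tested genes. It gave none to FBLN5, and these 4 markers had fewer counts on average, so its 0 says little about them. The other 6 mesenchyme markers were under 1 CPM in every library, among them LUM, DCN and COL3A1, and TCF21 was listed at 0 in all controls. Whether such cells had a part in the collagen values was not tested. Knockdown library a, which stood apart, had the highest values of PRRX1 (0.846 CPM) and MEOX1 (0.705 CPM). Each was at most 0.322 CPM in the other 5 libraries. DCN, POSTN and, by little, PDGFRB were also highest there. TWIST1, TWIST2, LUM, COL3A1 and TCF21 were not. TWIST2 was at 2.08 CPM in knockdown library a and 2.73 in c, and COL3A1 at 0.106 and 0.356 CPM. Endoderm markers summed to 8.39 to 10.8 CPM in the knockdown and 8.07 to 9.63 in the control. The highest sum was again that of knockdown library a. There GATA4 was at 1.69, GATA6 at 0.846 and HNF4A at 1.30 CPM, compared with at most 0.809, 0.290 and 0.457 CPM in the other 5 libraries. SOX17 was also highest there, at 0.141 CPM. The rest of the endoderm list did not follow. FOXA2 was lowest in that library (0.740 CPM, against 0.963 to 1.54 CPM in the others), and PDGFRA, COL4A3 and SOX7 lay within the range of the others. Trophectoderm or amnion markers summed to 3.09 to 3.39 and 2.53 to 3.32, and endothelial markers to 12.1 to 13.6 and 11.8 to 12.5. In the endoderm, trophectoderm or amnion, and endothelial lists, 0 genes passed the adjusted threshold in edgeR or DESeq2. In edgeR, 0 of them had an unadjusted p under 0.05. Over all genes, the shares past the adjusted threshold were 0.137% higher and 0.649% lower in edgeR, and 1.06% and 2.84% in DESeq2. All tested trophectoderm or amnion markers and most tested endoderm markers had fewer counts on average than FBLN5, so DESeq2's 0 says little about them.

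AGRN, the gene for the heparan sulfate proteoglycan agrin, came next to FBLN2 in p. Its level was 95.1, 108 and 107 CPM in knockdown libraries a to c and 86.7, 74.3 and 83.7 CPM in the controls. All knockdown libraries were above all controls, and the change was 0.34 ± 0.077 (log2, SE; adjusted p = 0.0707, edgeR). Over 17 alternative settings its change lay between 0.25 and 0.40, and the adjusted p ran from 0.000829 to 0.344. NID1, which encodes the laminin to collagen linker nidogen-1, was at 42.7, 46.4 and 40.0 CPM against 36.9, 37.01 and 36.0 CPM. The controls lay within 1 CPM of each other, below all knockdown libraries, and the change was 0.23 ± 0.073 (adjusted p = 0.174, edgeR). HSPG2, the gene for perlecan, was at 70.4, 93.6 and 77.4 CPM against 64.8, 69.0 and 68.5 CPM, a change of 0.26 ± 0.093 without overlap. It was 0.13 without knockdown library b and 0.15 with the GC trend removed. NID2 changed by 0.11 ± 0.10.

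FRAS1 and FREM2 encode proteins that form a complex beneath embryonic epithelia, and neither passed the threshold. FRAS1 was at 346, 371 and 412 CPM in knockdown libraries a to c and at 430.0, 406 and 434 CPM in the controls (-0.17 ± 0.076, log2, SE; adjusted p = 0.337, edgeR). Only knockdown library c lay inside the control range, and without it the change was -0.26 (adjusted p = 0.0189, edgeR). With each library's trend on gene span removed the change was -0.06 (adjusted p = 0.823, edgeR). FREM2 was at 65.9 ± 6.9 and 57.5 ± 5.2 CPM (0.20 ± 0.089), and its change was 0.10 without knockdown library b. Of the 8 linker and proteoglycan genes, 7 had a change above 0 (54.4% of all tested genes) and the median was 0.15.

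GPC4 and GPC3 encode glypicans, heparan sulfate proteoglycans that are anchored in the plasma membrane and bind growth factors. GPC4 was at 568, 564 and 570.3 CPM in knockdown libraries a to c and at 563, 565 and 573 CPM in the controls, the narrowest spread of the 45 relative to its level. Its fitted change was 0.001 ± 0.061 (log2, SE), and its sign turned with the scaling (-0.005 with DESeq2 size factors). GPC3 was at 109, 102.5 and 141 CPM against 114, 107 and 108 CPM (0.10 ± 0.10). Knockdown library c alone lay above the controls, and without it the change was -0.08. With the span trend removed it was 0.19.

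Fibronectin and the matricellular genes encode secreted proteins that modulate contacts between cell and matrix. They had the lowest median of the 7 roles, 0.05 over 5 genes. Of these 5, 3 had a change above 0 (54.4% of all tested genes). SPARC, a collagen-binding glycoprotein, was at 271, 286 and 239 CPM in knockdown libraries a to c and at 245, 225 and 232 CPM in the controls. Knockdown libraries a and b were higher and library c lay inside the control range (0.18 ± 0.076, log2, SE; adjusted p = 0.307, edgeR), and without knockdown library b the change was 0.12. THBS1, the gene for thrombospondin-1, was at 30.8, 32.4 and 32.3 CPM against 26.8, 28.6 and 29.8 CPM, with no overlap and a change of 0.16 ± 0.072. VCAN, the gene for the proteoglycan versican, was at 466, 504 and 489 CPM in the knockdown and 494, 523 and 528 CPM in the control. The groups overlapped, and its change of -0.08 ± 0.066 was -0.05 without knockdown library a and -0.03 with the GC trend removed. FN1 was at 228 ± 23 and 229 ± 9.1 CPM (-0.004 ± 0.078) and TNC, the gene for tenascin-C, at 4.67 ± 0.54 and 4.52 ± 0.51 CPM (0.05 ± 0.16).

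**Figure D3:**
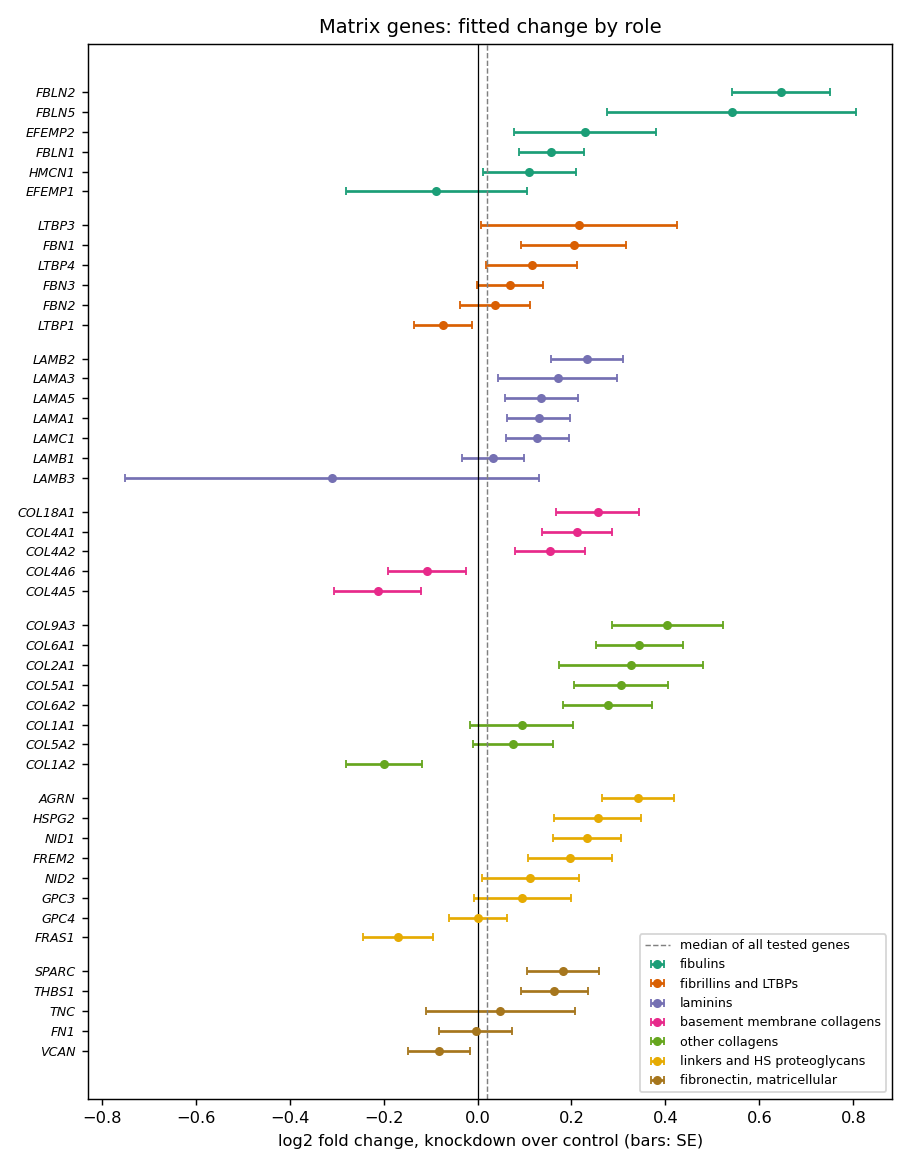
Fitted log2 fold change (horizontal axis, knockdown over control; bars are 1 SE) of the 45 genes, coloured by role, with the median of all tested genes (0.02) as a dashed line. FBLN2 stands at 0.65 and FBLN5, with a wider bar, at 0.54, and most others lie between 0 and 0.4. On the other side of 0 lie 9 genes, among them COL4A5, COL1A2 and FRAS1. LAMB3 is the lowest at -0.31, with a bar of 0.44.

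Levels of the genes were compared per length, as CPM per kilobase of exon (union of the exons annotated by GENCODE) in control libraries. GPC4 was the highest at 114 ± 1.1 CPM per kb (SD, n = 3), followed by SPARC at 48.4 ± 2.0, GPC3 at 40.5 ± 1.5, VCAN at 34.7 ± 1.2, LAMB1 at 29.4 ± 0.82 and FBLN1 at 24.1 ± 0.61. The ranges of these neighbours did not overlap. FRAS1 (22.3 ± 0.80) and LAMC1 (21.2 ± 0.42) overlapped, as did LAMA5 (15.2 ± 0.52), COL18A1 (14.9 ± 1.6) and COL4A5 (13.5 ± 0.57) in turn, each with its next in order. From COL6A2 (8.24 ± 0.92) down to COL4A2 (7.28 ± 0.59), all neighbours overlapped, with LAMA1, AGRN, COL4A1 and COL6A1 between them.

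FBLN2 stood 35th of 45 in that order. Its control level was 2.13 ± 0.24 CPM per kb, overlapping its neighbours COL1A1 (2.136 ± 0.29) and EFEMP1 (1.63 ± 0.35), and its knockdown level was 3.34 ± 0.11 CPM per kb. FBLN5 (0.39 ± 0.12), LTBP3 (0.23 ± 0.046) and LAMB3 (0.15 ± 0.037) were the lowest. LAMA5 stood at 1.91 ± 0.18 times LAMA1 in the knockdown and 1.91 ± 0.15 times in the control, and LAMB1 at 1.30 ± 0.13 and 1.39 ± 0.013 times LAMC1, per length.

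**Figure D4:**
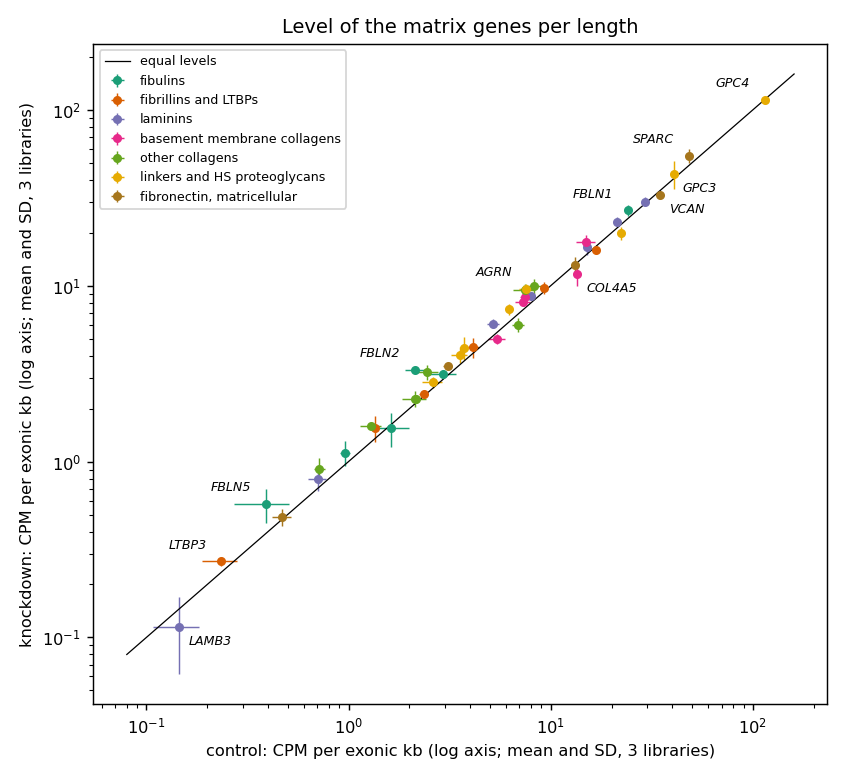
Mean level of each of the 45 genes in control (horizontal) and knockdown (vertical) libraries, in CPM per kb of exon on log axes, with SD bars over 3 libraries and the line of equal levels. GPC4 lies on the line at 114 CPM per kb, and FBLN2 lies above it, at 2.13 in the control and 3.34 in the knockdown.

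The differences went along with the GC content of the transcripts, in all genes and in the 45. Across the tested genes with a value, the median change, over 5 bins of equal size from low to high GC content, was -0.05, -0.02, 0.01, 0.07 and 0.11. In the bin richest in GC, from 58.0% to 83.9%, lay 17 of the 45 genes, FBLN2 among them, and 16 of these 17 had a change above 0, with a median of 0.26. In the second bin lay 7, of which 3 had a change above 0, with a median of -0.004. Across the 45 genes, Pearson's r between change and GC content was 0.47 and Spearman's rho 0.54, compared with 0.20 and 0.30 across 15953 tested genes. The points share the 6 libraries, and genes are not independent replicates. The 45 genes had a median GC content of 52.0%, the tested genes one of 48.2%. With each library's trend on GC content removed, an alternative added after the data were seen, the change of FBLN2 was 0.55 ± 0.096 (adjusted p = 0.0277, edgeR), the median of the 45 was 0.12 and 35 of the 45 lay above 0.

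**Figure D5:**
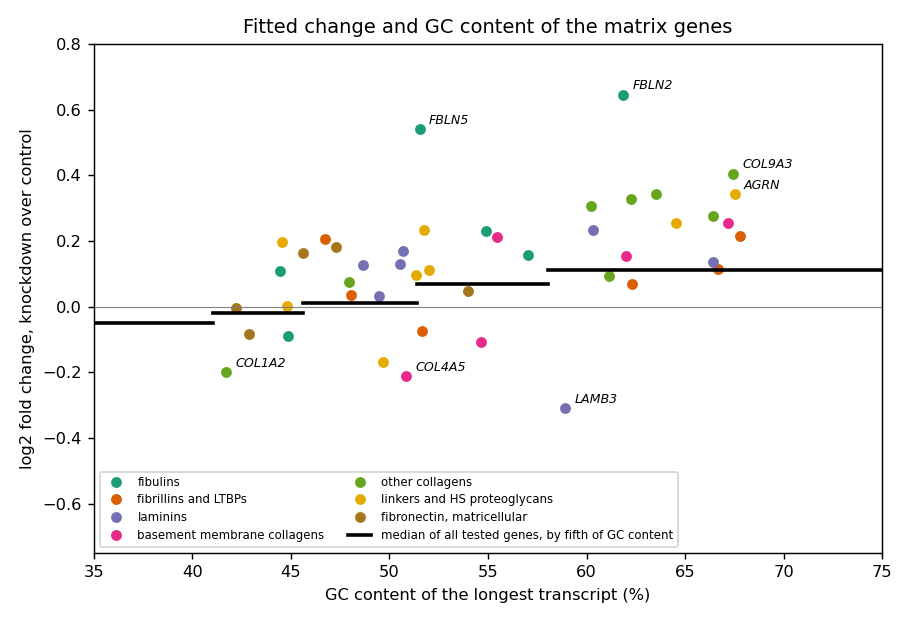
Fitted log2 fold change of the 45 genes (vertical axis) against the GC content of the longest transcript (horizontal axis, percent), coloured by role; black steps are the medians of all tested genes in 5 bins of GC content, which go from -0.05 to 0.11. FBLN2 lies at 61.9% GC and 0.65, above the step of its bin, and COL1A2 at the low end of GC content lies under its step.

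Gene span went with the change in the other direction. Across the 45 genes, r with the span was -0.32 and rho -0.35, and across all tested genes -0.09 and -0.17. With the trend on span removed, also added after the data were seen, the median of the 45 was 0.17 and FBLN2 changed by 0.66 ± 0.10. Of the 45 genes, 18 overlap exons of another gene, such as LAMB1 with DLD, COL9A3 with TCFL5 and EFEMP2 with MUS81. The strand setting of the counting is not given in the sources used here, so reads of such pairs may not be told apart. FBLN2, COL6A1 and NID1 are not among the 18, but AGRN is.

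Other genes of the matrix were counted from lists. Over all tested genes, edgeR called 0.137% higher and 0.649% lower, 6.68% and 7.57% had an unadjusted p under 0.05, and DESeq2 called 1.06% and 2.84%, and the counts of each list are to be read against these shares. Of 66 further structural matrix genes, 61 were tested, and 0 were higher and 1 lower past the threshold in edgeR (10 and 5 at an unadjusted p under 0.05, 1 and 1 in DESeq2). The one was SPOCK1, the gene for the proteoglycan testican-1, at 60.6 ± 2.8 CPM in the knockdown and 79.2 ± 5.3 in the control (-0.39 ± 0.071, log2, SE; adjusted p = 0.0278, edgeR). Of the 6 fits that left out 1 library, SPOCK1 passed only in the one without knockdown library c, and with the span trend removed its change was -0.26 (adjusted p = 0.120, edgeR). EMILIN1, which encodes an elastin-associated glycoprotein, was next, at 9.69 ± 1.8 and 6.25 ± 1.4 CPM (0.64 ± 0.17; adjusted p = 0.124, edgeR). The median over the 61 was 0.10.

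Of 27 matrix receptors, 26 were tested, and 0 were higher and 1 lower in edgeR (6 and 2 at an unadjusted p under 0.05, 0 and 2 in DESeq2; all genes, 0.137% and 0.649%, 6.68% and 7.57%, 1.06% and 2.84%). CD44, the hyaluronan receptor, fell from 16.6 ± 0.85 CPM in the control to 10.9 ± 1.4 in the knockdown (-0.61 ± 0.11, log2, SE; adjusted p = 0.0251, edgeR). Its call did not hold without knockdown library b (adjusted p = 0.0582) or without control library a (0.172), b (0.121) or c (0.156), all in edgeR. ITGA1, the alpha-1 integrin chain that binds collagen and laminin, was at 18.6 ± 1.0 CPM in the knockdown and 14.9 ± 0.48 in the control (0.32 ± 0.086; adjusted p = 0.117, edgeR). The median over the receptors was 0.10.

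All 32 genes for collagen and matrix assembly enzymes were tested, and 1 was higher and 1 lower in edgeR (8 and 1 at an unadjusted p under 0.05, 2 and 1 in DESeq2; all genes, 0.137% and 0.649%, 6.68% and 7.57%, 1.06% and 2.84%). LOXL2, a lysyl oxidase that crosslinks collagen and elastin, rose from 7.54 ± 0.81 CPM in the control to 11.5 ± 0.61 in the knockdown, and all knockdown libraries lay above all controls (0.60 ± 0.12, log2, SE; adjusted p = 0.0349, edgeR). LOXL2 passed only without knockdown library c among the 6 fits that left out 1 library, and with the GC trend removed its change was 0.51 (adjusted p = 0.0850, edgeR). TLL2, a tolloid-like metalloprotease related to BMP1, fell from 17.2 ± 0.54 to 12.8 ± 0.52 CPM (-0.42 ± 0.087; adjusted p = 0.0487, edgeR), and it too passed only without knockdown library c among those 6 fits. Over 17 alternatives TLL2 lay between -0.46 and -0.39, with 8 in which it did not pass. The median over the 32 was 0.10. Of 31 matrix proteases and inhibitors, 26 were tested and 0 passed the threshold in edgeR, with 6 higher and 0 lower at an unadjusted p under 0.05 (all genes, 6.68% and 7.57%) and 1 called by DESeq2, MMP15, which was higher. Those with the smallest p were MMP15, a membrane-bound metalloprotease, at 60.4 ± 4.8 CPM in the knockdown and 48.1 ± 3.6 in the control (0.33 ± 0.080; adjusted p = 0.0889, edgeR), and SULF1, a heparan sulfate 6-O-endosulfatase, at 10.9 ± 0.12 and 8.55 ± 0.49 CPM (0.36 ± 0.10). Their median was 0.06.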

How the data were processed

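The deposited values are unscaled counts, 1 row per gene symbol and 1 column for each of the 6 libraries, whole numbers with differing totals. The submitters' processing notes name Trimmomatic 0.39, STAR 2.7.8a, featureCounts, Subread 2.14.2 and the build hg38, without role or order. The annotation, the strand setting and the treatment of reads that align to several places are not given in the sources used here. All 53719 rows were fitted together, and each column was matched to the sample of the same title.

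Genes were kept by filterByExpr (19721, with 99.9% of the counts), scaled by TMM and tested with edgeR 4.0.16 (R 4.3.3), quasi-likelihood, group as the only term, two-sided, Benjamini-Hochberg adjustment over all tested genes, threshold 0.05. The biological coefficient of variation was 0.103. The SE of a fold change was derived from its F statistic. CPM used TMM-scaled library sizes. Fitted log2 fold changes of low genes depend on the prior count.

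The members and all lists were chosen with earlier results of these data known. Genes with values per library are FBLN2, members past the threshold, the 2 smallest p in each role and the 5 highest control levels per length. Others given with full values (FBLN5, COL4A2, COL4A5, COL4A6, COL1A2, COL2A1, COL5A1, COL6A2, HSPG2, FRAS1, FREM2) were chosen after their values were seen. In each wider list the 2 smallest p are named. The list of primed-state markers is not reported here.

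Exon lengths, positions and GC content (longest transcript) are from GENCODE (GRCh38): 31425 rows matched by name and 1367 by an older symbol, and 80.9% of tested genes had a value. Sequences are from RefSeq (GRCh38.p14). With 3 libraries a group, the number of libraries and, for genes under 5 CPM, counting error limit the precision. The alternatives were 15 planned settings (3 scalings, DESeq2 1.42.0, limma-voom 3.58.1, no filter or a mean count of at least 50, removal of 576 mitochondrial and rRNA rows, the replicate letter as a block, each library left out) and 2 added after the data were seen (trend on GC content or on span removed per library, natural spline with 5 degrees of freedom).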

Additional observations from a re-analysis of the deposited data

How the results depend on the processing

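The median change over the 45 genes lay between 0.12 and 0.17 in 17 alternatives, beside 0.14 as reported. FBLN2 kept its direction in all 17, between 0.55 and 0.71, and stayed past the threshold in 13. Leaving out 1 library each gave 0.55 to 0.71, and the call did not hold in 4 of those 6 fits. The number of the 45 genes past the threshold, 1 as reported, was 2 with library size alone (AGRN and FBLN2), 3 with DESeq2's Wald test (AGRN, COL6A1 and FBLN2) and 7 without a filter on low counts (AGRN, COL18A1, COL6A1, COL6A2, COL9A3, FBLN2 and HSPG2). It ran from 0 to 6 with 1 library left out, 0 without knockdown library b or any 1 control library and 6 without knockdown library c (COL4A1, COL4A5, FBLN2, FRAS1, NID1 and SPARC).

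Over all genes, 155 passed as reported, 530 with DESeq2's Wald test, 1064 without a filter, 263 with the span trend removed and 26 to 1309 with 1 library left out (26 without control library a, 1309 without knockdown library c). The causes were not tested. With the replicate letter as a block (replicate block), 393 of all genes and 2 of the 45 (AGRN and FBLN2) passed. The correlations of the deviations between libraries of the same letter were -0.021, 0.157 and 0.005 for a, b and c. Both libraries b were each other's best match, while those of a and c were not. With 3 libraries a group, these values cannot decide whether the letters pair the libraries.

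Of the other 28 genes given with full values, 25 kept their direction in every alternative. GPC4 turned, to -0.005 with DESeq2 size factors and -0.005 with the Wald test, and ran from -0.023 to 0.009 with 1 library left out. GPC3 ran from -0.078 to 0.181 and LAMB1 from -0.014 to 0.078 with 1 library left out, each below 0 without knockdown library c. Of the 8 other matrix genes named, all kept their direction in the 17 alternatives. Counts limit LAMB3 and FBLN5 most, with under 100 counts in every library.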
